A study of Homo sapiens with 24 samples.

Results

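The genes described here are 48 human genes of the interferon response and of class I antigen presentation, among 60605 genes counted by PRO-seq, which sequences the RNA being made by engaged RNA polymerase and so reads transcription rather than the amount of mature RNA. They were chosen by symbol from textbook knowledge of the pathway, with earlier results of these data known, and all 48 symbols were found. The cells were T47D, an estrogen receptor-positive luminal breast cancer line, in which the transcriptional repressor TRPS1 carries a degron tag (dTAG-TRPS1) at its own locus. Clones 28, 35 and 39 each received either 0.1% v/v DMSO, the solvent, or 100 nM dTAG-13, which recruits tagged TRPS1 for degradation, and were collected after 90 minutes. Each of the 6 groups had 4 replicates, 24 libraries in all. Every group carried the tagged allele, and no untagged parental cells were among the libraries. Each line was 1 clone, picked under hygromycin from a parent that had itself been cloned under puromycin. According to the study's methods, some genomic copies of TRPS1 were knocked out in every clone and only the tagged protein was expressed. A difference between clones therefore cannot be told apart from any other difference that arose while the clones were derived. The replicates were collected at different times of 1 day, so p-values measure the spread between these collections.

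Interferons are secreted proteins that cells release when they sense viral nucleic acid. Type I interferons bind a receptor that activates Janus kinases, and a complex of STAT proteins with IRF9 then enters the nucleus and binds interferon-stimulated response elements in the promoters of many genes. The products of these genes bind or cut foreign RNA, block translation, restrict viral entry and budding, attach the ubiquitin-like protein ISG15 to other proteins, and raise the loading of peptides on class I molecules for T cells. Tumour cells often transcribe part of the set without added interferon.

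Libraries held 3226718 to 9575800 counts in genes. Luminal markers were present in every library, with ESR1 at 1205 to 1912 CPM (counts scaled to library size) and KRT19 at 265 to 350 CPM. Of the blood cell markers, HBB had at most 2 reads and LYZ at most 3 reads in any library, while PTPRC reached 4.68 CPM. Among fibroblast markers COL1A2 had at most 6 reads and COL1A1 had 6.9 to 15.5 CPM. Fewer cells transcribing a gene and less transcription in each cell cannot be told apart in these bulk libraries. Of the 48 genes, 46 had enough reads to be tested. TRIM22, an antiviral ubiquitin ligase, had 0 to 7 reads in a library, and IFI44L, a paralog of IFI44, had 0 to 8.

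Promoter stretches of 6 of the 12 genes that differed most between clones are shown first, to set out the letters of the element that the interferon-activated complex is known to bind. RefSeq windows of 250 bases before to 50 after a start (GRCh38.p14) matched 38 of the 48 genes, and the first listed window of each gene was searched on both strands for GAAANNGAA or its reverse complement TTCNNTTTC, a short core form of the response element. At least 1 match stood in 26 of the 38 windows (68.4%), against 8.29% of the windows of all 27305 genes in the table. When 1 further A was required after the core, the shares were 65.8% and 3.65%. TTCNNNGAA, the palindromic form known from interferon gamma-activated sites, stood in 21.1% of the windows against 7.88%. A match is a string of letters and not a measured binding site.

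Below, 6 stretches that end at the base before an annotated start are given 5′ to 3′ on the strand of the gene, with matches in capitals and the name followed by the position. They were chosen for a match before a start, so they do not show how common a match is among these 12 genes. CMPK2 and XAF1, which differed more than IFI6, RSAD2 and MX1, had 0 matches in their first listed windows, and OAS2 and OASL are not among the 38 genes with a window.

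IFI44, chr1:78649639-78649788, plus strand: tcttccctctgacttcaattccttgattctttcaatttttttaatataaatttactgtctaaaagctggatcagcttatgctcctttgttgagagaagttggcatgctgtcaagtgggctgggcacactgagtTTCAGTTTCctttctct

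IFIT1, chr10:89392473-89392622, plus strand: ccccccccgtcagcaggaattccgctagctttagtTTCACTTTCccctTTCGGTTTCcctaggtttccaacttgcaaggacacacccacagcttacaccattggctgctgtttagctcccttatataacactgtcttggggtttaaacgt

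IFIT3, chr10:89327797-89327996, plus strand: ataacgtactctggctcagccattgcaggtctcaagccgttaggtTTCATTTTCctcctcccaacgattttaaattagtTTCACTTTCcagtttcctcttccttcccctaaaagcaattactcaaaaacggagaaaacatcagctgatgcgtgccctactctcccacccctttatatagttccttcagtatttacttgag

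IFI6, chr1:27672193-27672392, minus strand: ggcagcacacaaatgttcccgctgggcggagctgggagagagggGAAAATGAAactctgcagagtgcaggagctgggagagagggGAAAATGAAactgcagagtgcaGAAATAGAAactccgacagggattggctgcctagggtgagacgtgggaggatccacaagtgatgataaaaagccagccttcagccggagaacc

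RSAD2, chr2:6877627-6877776, plus strand, at the second listed start: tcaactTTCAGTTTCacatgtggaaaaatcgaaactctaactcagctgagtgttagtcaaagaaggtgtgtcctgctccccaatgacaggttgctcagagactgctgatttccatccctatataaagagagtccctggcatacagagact

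MX1, chr21:41431850-41432049, plus strand, at the third listed start: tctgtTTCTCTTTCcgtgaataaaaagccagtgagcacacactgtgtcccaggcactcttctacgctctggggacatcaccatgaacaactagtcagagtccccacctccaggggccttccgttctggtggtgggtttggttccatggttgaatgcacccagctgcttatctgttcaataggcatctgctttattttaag

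In IFIT1 both matches stood within 115 bases of the start, the first at 115 to 107 bases before it and the second at 102 to 94. IFIT3 had matches at 155 to 147 and at 121 to 113 bases before its start. IFI6 carried 3 matches, at 156 to 148, 115 to 107 and 93 to 85. The single match of IFI44 lay closest to the start, at 17 to 9 bases before it. Windows with the further A were taken first, and then those of the genes with the wider range of clone means. The first listed window of RSAD2 held 1 match without it, and that of MX1 held 2 matches, both after the start, so the stretches shown for RSAD2 and MX1 belong to other annotated starts within these genes.

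The first comparison asked how the 3 clones differed at baseline, in DMSO. Interferon response genes were transcribed most in Clone 39, less in Clone 35 and least in Clone 28. The 48 genes took 0.106 to 0.121% of the counts of a DMSO library in Clone 39, 0.0800 to 0.0922% in Clone 35 and 0.0630 to 0.0687% in Clone 28, and these ranges did not overlap. In a joint test of the 3 clones with edgeR's quasi-likelihood method and Benjamini-Hochberg adjustment at an adjusted p under 0.1, 32 of the 46 tested members differed (69.6%), against 28.5% of all 22326 genes tested. Group means stood in the order Clone 28, Clone 35, Clone 39 for 34 of the 46 members (73.9%), against 22.8% of all genes. In the dTAG-13 libraries 30 members had this order (65.2%), against 23.7% of all genes.

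Between Clone 39 and Clone 28, 33 members were higher in Clone 39 and 1 was lower, with 12 not past the threshold. Over all genes 26.7% differed between these clones, 12.4% higher and 14.3% lower in Clone 39. The median difference of the members was 0.64 on the log2 scale, with a range of -0.38 to 4.00, against a median of 0.00 over all genes. All 4 DMSO libraries of Clone 39 lay above all 4 of Clone 28 for 28 members, a separation that 9.59% of all genes showed, and all 4 lay below for 1 member, IRF2, against 11.2%. In the same way Clone 39 lay above Clone 35 for 21 members, against 8.69% of all genes, and Clone 35 above Clone 28 for 17 members, against 4.35%. Within each replicate number taken alone, 33 of the 46 members were higher in Clone 39 in 4 of 4 numbers (71.7%), against 20.3% of all genes. Between Clone 35 and Clone 28, 17 members were higher in Clone 35 and 0 were lower, where 2.24% of all genes were higher and 3.01% lower. Between Clone 39 and Clone 35, 22 members were higher in Clone 39 and 2 were lower, where 9.64% of all genes were higher, 12.9% lower and 22.6% differed. The comparisons share groups, so their counts are not independent of one another.

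**Figure D1:**
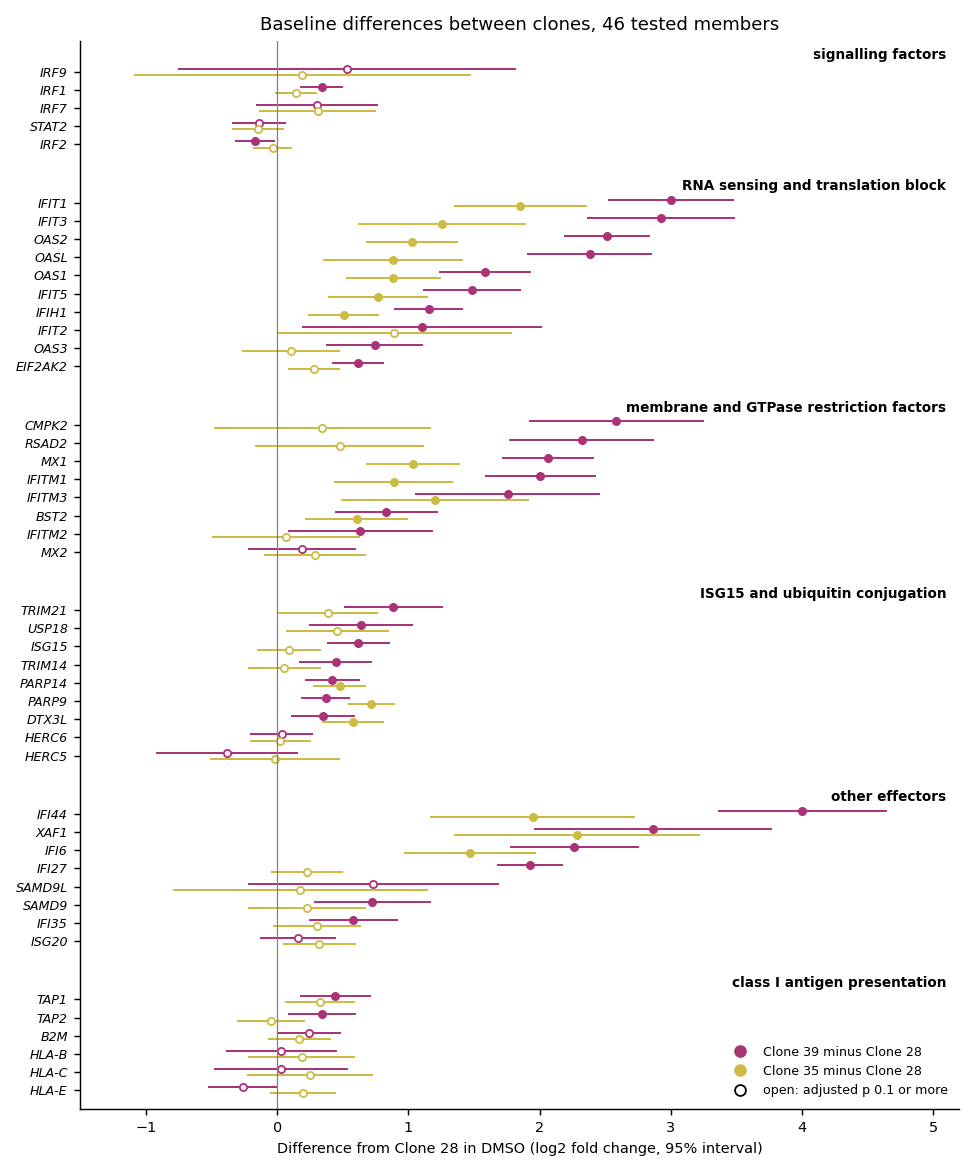
Log2 difference of each of the 46 tested genes from Clone 28 in DMSO (x axis), for Clone 39 (purple) and Clone 35 (yellow), with 95% intervals, ordered by role; filled points passed an adjusted p of 0.1. IFI44 lies farthest to the right, at 4.00 for Clone 39, while the 6 class I genes have a median of 0.14.

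Some members had too few reads in Clone 28 to pass the filter there. When the filter was applied to the 8 libraries of Clone 28 alone, 40 members remained, and 28 of these were higher and 1 lower in Clone 39 (72.5%), against 27.7% of the 20653 genes kept in the same way. IFIT2, IFITM3, CMPK2, IFI44, SAMD9L and XAF1 did not reach the filter in Clone 28. CMPK2 and SAMD9L also did not reach it in Clone 35 alone, nor did SAMD9L in Clone 39 alone.

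The signalling factors through which the response starts are encoded by 5 members. Of these, 1 was higher and 1 lower in Clone 39 than in Clone 28, and 0 differed between Clone 35 and Clone 28. Over all genes 26.7% and 5.25% differed in these comparisons, shares that also apply to the groups by role below. So few calls among 5 genes do not show that these factors were unchanged. STAT2, the partner of IRF9 in the activating complex, had 31.8, 31.4, 36.1 and 34.8 CPM in the DMSO libraries of Clone 28, 25.3, 30.4, 31.6 and 33.2 in Clone 35, and 28.1, 31.4, 27.2 and 35 in Clone 39. These values overlapped, and the difference of Clone 39 from Clone 28 was -0.14 on the log2 scale (SE 0.10, adjusted p = 0.362 by edgeR). IRF1, a transcription factor that acts downstream of both interferon types, had 35.3, 43.4, 39.4 and 40.9 CPM in Clone 28 and 51.1, 48.4, 54.8 and 47.5 CPM in Clone 39. The Clone 39 libraries lay above those of Clone 28 without overlap, a log2 difference of 0.34 (SE 0.08, edgeR adjusted p = 0.000973), and Clone 35 lay between, at 40.8 to 47 CPM. IRF1 overlaps genes on the other strand, and whether the counting used strand was not given in the sources used here. IRF2, known mostly as a repressor of the same elements, was the member that was lower in Clone 39, by a log2 difference of -0.17 (edgeR adjusted p = 0.0958). IRF7, the factor that amplifies type I interferon production, was at a mean of 4.56 CPM in Clone 28 and 5.75 CPM in Clone 39, and the difference of 0.31 did not pass (edgeR adjusted p = 0.379).

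IRF9, the DNA-binding subunit of the complex, needs its libraries shown separately. Its DMSO values were 17.4, 19.1, 25.2 and 20.2 CPM in Clone 28, 23.4, 23.5, 21.5 and 25.2 in Clone 35, and 27.1, 29.3, 29.4 and 32.8 in Clone 39, so Clone 39 stood above both other clones without overlap. In dTAG-13, however, replicate 1 of Clone 39 had 262 CPM (1052 reads), where the 23 other libraries had 13.4 to 32.8 CPM. A gene that overlaps IRF9 on the same strand also stood high in that library, at 1139 reads against 132 to 396 elsewhere. Reads in the shared stretch can count for both genes, so this need not be a separate observation. With that library in the fit, the DMSO difference of Clone 39 from Clone 28 was 0.53 with an adjusted p of 0.615 (edgeR). Without it the difference was 0.53 with an adjusted p of 0.00171.

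The 10 members that sense or destroy foreign RNA or block its translation were all higher in Clone 39 than in Clone 28, with a median log2 difference of 1.53, and 7 of them were also higher in Clone 35 than in Clone 28. IFIT1, which binds RNA lacking the host cap methylation, had 3.48, 2.93, 4.52 and 4.91 CPM in the DMSO libraries of Clone 28. In Clone 35 IFIT1 had 11.2, 17.8, 11.3 and 17 CPM, and in Clone 39 it had 32.1, 28.1, 33.0 and 35 CPM. No clone overlapped another, and IFIT1 was 8.01-fold higher in Clone 39 than in Clone 28 (95% CI 5.77 to 11.1, edgeR adjusted p = 3.45e-11) and 3.61-fold higher in Clone 35. IFIT3, its binding partner, had 1.24, 2.30, 1.72 and 1.57 CPM in Clone 28, 5.25, 5.41, 1.55 and 4.70 in Clone 35, and 15.8, 10.6, 12.8 and 13.6 in Clone 39. Clone 39 stood apart for IFIT3, at 7.60-fold the level of Clone 28 (95% CI 5.17 to 11.2, edgeR adjusted p = 3.19e-10), whereas replicate 3 of Clone 35 fell among the values of Clone 28.

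The OAS enzymes make the second messenger that switches on RNase L. OAS2 had 4.97, 3.98, 4.95 and 5.3 CPM in Clone 28, 8.82, 10.7, 7.89 and 11.6 in Clone 35, and 28.9, 28.8, 23.7 and 28.4 in Clone 39. The clones did not overlap for OAS2, which was 5.71-fold higher in Clone 39 than in Clone 28 (95% CI 4.58 to 7.12, edgeR adjusted p = 1.92e-14). OASL, a relative without the enzyme activity, had 1.74, 1.26, 2.15 and 2.16 CPM in Clone 28, 3.81, 2.71, 2.79 and 4.29 in Clone 35, and 8.38, 9.52, 9.26 and 11.4 in Clone 39. OASL was 5.21-fold higher in Clone 39 than in Clone 28 (edgeR adjusted p = 7.85e-10), again with no overlap. The other members of the group differed by smaller steps. OAS1 differed by 1.58 on the log2 scale, IFIT5 by 1.48, the RNA sensor IFIH1 by 1.15, OAS3 by 0.74, and EIF2AK2, the kinase that stops translation on double-stranded RNA, by 0.62. IFIT2 passed for Clone 39 against Clone 28 (1.1, edgeR adjusted p = 0.0767) but not in the joint test of clones (adjusted p = 0.148). With the replicate number as a block IFIT2 passed the joint test (edgeR adjusted p = 0.0248) and was also higher in Clone 35 than in Clone 28 (0.93, adjusted p = 0.0865), as was EIF2AK2 (0.28, adjusted p = 0.00819 with the block and 0.106 without it). The block raised the calls over all 22326 genes too, from 6361 to 8861 in the joint test and from 1173 to 2664 for Clone 35 against Clone 28.

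**Figure D2:**
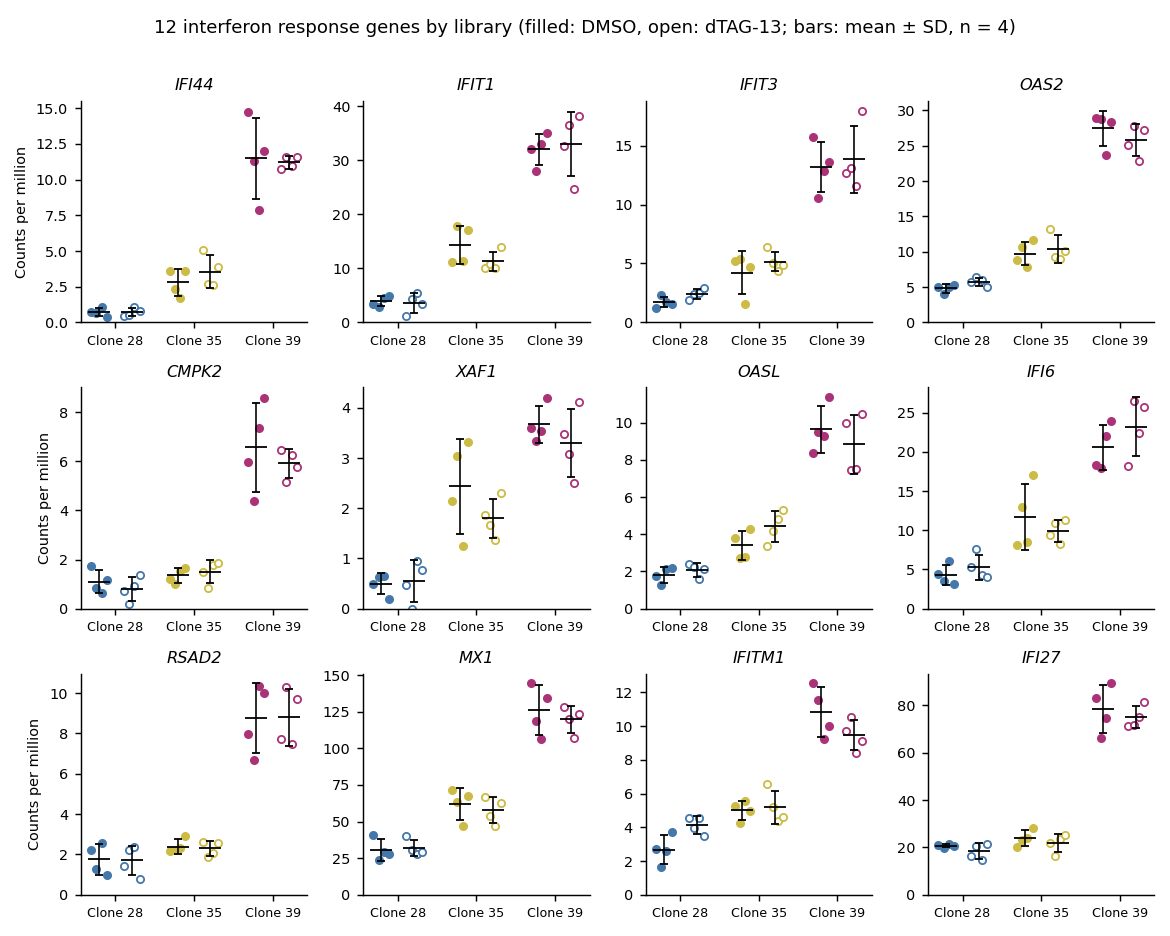
CPM (y axis) of the 12 genes with the widest range of DMSO means among those past the joint clone test, by clone (filled points, DMSO; open points, dTAG-13; bars, mean ± SD, n = 4). In each panel the Clone 39 libraries of both treatments lie above all Clone 28 libraries, and the open points lie among the filled points of their clone or close to them.

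Of the 8 membrane and GTPase restriction factors, 7 were higher in Clone 39 than in Clone 28, with a median log2 difference of 1.88 over the group. MX1, a dynamin-like GTPase that traps viral nucleocapsids, had 40.8, 23.5, 29.5 and 28.1 CPM in Clone 28, 71.5, 63.1, 46.7 and 67.7 in Clone 35, and 145, 119, 107 and 134 in Clone 39. MX1 therefore separated the clones completely, at 4.19-fold in Clone 39 against Clone 28 (95% CI 3.30 to 5.31, edgeR adjusted p = 4.85e-09). MX2, its neighbour on chromosome 21, did not pass, at a log2 difference of 0.19 (edgeR adjusted p = 0.570). RSAD2 (viperin), which makes a chain-terminating nucleotide, had 2.24, 1.26, 2.58 and 0.982 CPM in Clone 28, 2.15, 2.20, 2.32 and 2.9 in Clone 35, and 7.98, 6.69, 10.4 and 9.99 in Clone 39. CMPK2, a mitochondrial nucleotide kinase encoded beside it, had 1.74, 0.838, 0.645 and 1.18 CPM in Clone 28, 1.19, 1.01, 1.55 and 1.66 in Clone 35, and 5.99, 4.38, 7.36 and 8.59 in Clone 39. For this pair Clone 35 overlapped Clone 28 and Clone 39 stood alone. RSAD2 was 5.00-fold higher in Clone 39 than in Clone 28 (95% CI 3.42 to 7.29, edgeR adjusted p = 2.70e-08), and CMPK2 was 6.01-fold higher (95% CI 3.8 to 9.49, edgeR adjusted p = 1.44e-07). In Clone 35 RSAD2 was at 1.39-fold and CMPK2 at 1.27-fold the level of Clone 28, and neither passed. The DMSO libraries of Clones 28, 35 and 39 held 20, 33 and 117 reads of CMPK2 and 32, 58 and 154 of RSAD2. Among the clones taken alone, CMPK2 reached the filter only in Clone 39, so its place in the test rests on the clone where it was high.

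IFITM1, a membrane protein that hinders viral fusion, had 2.73, 1.68, 2.58 and 3.73 CPM in Clone 28, 5.25, 4.23, 5.57 and 4.98 in Clone 35, and 12.6, 11.6, 9.26 and 9.99 in Clone 39. The clones did not overlap for IFITM1, with a log2 difference of 2.01 between Clone 39 and Clone 28 (SE 0.20, edgeR adjusted p = 1.89e-09). IFITM3 differed by 1.76 and IFITM2 by 0.63 in the same direction, and the antiviral tether BST2 by 0.83. IFITM2 did not pass the joint test of clones (edgeR adjusted p = 0.127), but passed it with the replicate number as a block (adjusted p = 0.0818). The IFITM genes are near-identical in part, so reads could be split between them, and IFITM1 also overlaps another gene on its strand.

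Among the other effectors, 6 of 8 tested genes were higher in Clone 39 than in Clone 28, and they included the widest difference of all members. IFI44, a cytoplasmic protein of the antiviral response, had 0.746, 0.628, 1.08 and 0.393 CPM in Clone 28, 3.58, 2.37, 1.70 and 3.59 in Clone 35, and 14.8, 11.3, 7.90 and 12 in Clone 39. IFI44 was 16-fold higher in Clone 39 than in Clone 28 (95% CI 10.3 to 24.9, edgeR adjusted p = 5.29e-12) and 3.86-fold higher in Clone 35, with no overlap between clones. Only 13 reads in the 4 Clone 28 libraries lie behind the lowest of these means, against 207 in Clone 39. XAF1, a pro-apoptotic interferon target, had 0.497, 0.628, 0.645 and 0.196 CPM in Clone 28, 2.15, 3.04, 1.24 and 3.32 in Clone 35, and 3.59, 3.35, 3.54 and 4.2 in Clone 39. Both other clones stood above Clone 28 for XAF1, with 9, 59 and 65 reads in the 3 groups. The fold was 7.28 for Clone 39 (95% CI 3.90 to 13.6, edgeR adjusted p = 6.07e-06) and 4.88 for Clone 35.

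IFI27, a mitochondrial protein that is among the most inducible genes of the response, had 20.9, 19.7, 21.3 and 20.8 CPM in Clone 28, 20.03, 23.3, 24.1 and 28.3 in Clone 35, and 83.2, 66.4, 74.7 and 89.7 in Clone 39. It set Clone 39 apart from both other clones, at 3.81-fold the level of Clone 28 (95% CI 3.21 to 4.52, edgeR adjusted p = 3.01e-14). Clone 35 was at 1.17-fold the level of Clone 28 for IFI27 (95% CI 0.975 to 1.41) and did not pass. IFI6, another small mitochondrial survival protein, had 4.47, 3.56, 6.02 and 3.14 CPM in Clone 28, 8.11, 13, 8.51 and 17 in Clone 35, and 18.4, 18, 22.1 and 24 in Clone 39. The 3 clones did not overlap for IFI6, which was 4.80-fold higher in Clone 39 than in Clone 28 (edgeR adjusted p = 9.00e-09), although a noncoding gene overlaps it on the same strand. IFI35 and SAMD9 were also higher in Clone 39, by 0.58 and 0.73 on the log2 scale. ISG20, an RNA exonuclease, and SAMD9L did not pass.

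The ISG15 and ubiquitin group had a median log2 difference of 0.42 between Clone 39 and Clone 28, and part of it was highest in Clone 35. ISG15 had 18.6, 18.9, 20.9 and 20.6 CPM in Clone 28, 23.1, 19.1, 19.2 and 22.8 in Clone 35, and 28.3, 28.3, 33.2 and 31.8 in Clone 39. Clone 39 lay above both other clones, which overlapped each other, and its difference from Clone 28 was 0.62 (SE 0.11, edgeR adjusted p = 9.55e-05). Of the 9 tested genes, 7 were higher in Clone 39 than in Clone 28, among them USP18, the protease that removes ISG15, and TRIM14 and TRIM21. USP18 also passed for Clone 35 against Clone 28 with the replicate number as a block (0.45, edgeR adjusted p = 0.0835), and not without it (adjusted p = 0.233). HERC6 (0.03) and HERC5 (-0.38), the ligases related to ISG15 transfer, did not pass. PARP9, DTX3L and PARP14 form a neighbourhood on chromosome 3 and act together on chromatin and on STAT signalling. PARP9 had 32.6, 28.5, 28.8 and 32.8 CPM in Clone 28, 48.2, 52.4, 48 and 52.7 in Clone 35, and 39.5, 42.2, 39.5 and 37.6 in Clone 39. Here Clone 35 was the highest, with no overlap, and PARP9 was lower in Clone 39 than in Clone 35 by a log2 difference of -0.35 (SE 0.08, edgeR adjusted p = 0.00208). The mean of DTX3L was 25.7 CPM in Clone 35 against 22.0 in Clone 39, and that of PARP14 was 42.3 against 40.3, and neither difference passed. The 22 other tested genes within 1 Mb of PARP9 had a median log2 difference from Clone 28 of -0.46 in Clone 39 and 0.04 in Clone 35. The order of the clones at this locus is therefore not particular to these members, and its cause was not tested.

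The 6 class I antigen presentation genes had a median log2 difference of 0.14 between Clone 39 and Clone 28, the lowest of the 6 roles. TAP1 and TAP2, which pump peptides into the endoplasmic reticulum, were the 2 of these that were higher in Clone 39 than in Clone 28. They were 33.3% of the 6 genes, where 26.7% of all genes differed. TAP1 had 21.6, 22.0, 25.8 and 21.0 CPM in Clone 28, 27.9, 28.6, 27.5 and 29.3 in Clone 35, and 25.3, 34.2, 27.5 and 36.0 in Clone 39. Clone 39 overlapped Clone 28 in 1 library for TAP1, and the difference was 0.44 (edgeR adjusted p = 0.0122). TAP1 was also higher in Clone 35 than in Clone 28 with the replicate number as a block (0.32, edgeR adjusted p = 0.0291), and did not pass without it (adjusted p = 0.200). For TAP2, Clone 39 stood at 18.3 to 21.8 CPM above the 14.2 to 17.1 CPM of Clone 28, a difference of 0.34 (edgeR adjusted p = 0.0465). B2M, the light chain of class I molecules, had 25.1, 27.9, 26.7 and 24.6 CPM in Clone 28, 29.3, 28.9, 29.6 and 29.4 in Clone 35, and 24.3, 28.6, 32.4 and 38.2 in Clone 39. Clone 39 spread across the other clones, and its difference from Clone 28 was 0.25 (edgeR adjusted p = 0.141), which became 0.34 (adjusted p = 0.0370) without DMSO replicate 1 of Clone 39. With the replicate number as a block the difference was 0.25 with an adjusted p of 0.0637. HLA-B, a heavy chain, had 9.70, 8.80, 12.9 and 10.4 CPM in Clone 28, 8.82, 11.5, 13.2 and 13.5 in Clone 35, and 10.6, 9.78, 6.54 and 15.2 in Clone 39. The values overlapped throughout, and the difference of 0.03 (SE 0.21, edgeR adjusted p = 0.940) ran from -0.21 to 0.18 when single libraries were left out. HLA-E, a heavy chain recognised by natural killer cell receptors, was lower in Clone 39 than in Clone 35 by a log2 difference of -0.46 (edgeR adjusted p = 0.00634). Against Clone 28 the HLA-E difference of Clone 39 was -0.26, with an adjusted p of 0.152 without the block and 0.0485 with it (edgeR). Class I heavy chain genes share long stretches of sequence, so their counts are uncertain where reads fit more than 1 of them.

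The same comparison in the 12 dTAG-13 libraries, added after the data had been seen, used none of the DMSO libraries. There 34 members were higher and 1 was lower in Clone 39 than in Clone 28, where 12.6% of all genes were higher, 15.7% lower and 28.3% differed. The lower member was HLA-E (-0.42, edgeR adjusted p = 0.00943), whereas IRF2, the lower member in DMSO, did not pass (-0.05, adjusted p = 0.674). IRF9 was among the 34, at a difference of 2.4 (edgeR adjusted p = 0.0630) that included the library of 262 CPM. The median difference over the members was 0.66, with a range of -0.42 to 3.88. Between Clone 35 and Clone 28, 13 members were higher and 1 was lower, where 2.79% of all genes were higher, 3.55% lower and 6.34% differed. IFI44 ranged from 0.478 to 1.1 CPM in Clone 28, from 2.62 to 5.05 in Clone 35 and from 10.7 to 11.6 in Clone 39. Over both treatments, all 8 Clone 39 libraries lay above all 8 Clone 28 libraries for 24 of the 46 members, against 4.69% of all genes.

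Per kilobase of gene, the members covered a wide range of levels. Over the 12 DMSO libraries HLA-E had the highest mean at 6.82 CPM per kb, followed by B2M at 3.84, IRF9 at 3.60, and IFI27 and BST2 at 3.46. The lowest were IFI44L at 0.0253 and TRIM22 at 0.00957 CPM per kb. HLA-E stood at the 95.3 percentile of the 14905 protein-coding genes tested.

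The members lie on 17 chromosomes, and 28 of them form 11 clusters with gaps of at most 0.5 Mb. By GENCODE 44 on hg38, OAS2 lies at chr12:112978395-113011723 on the plus strand and OASL at chr12:121017763-121039246 on the minus strand. CMPK2 spans chr2:6840570-6866635 on the minus strand, XAF1 chr17:6755447-6775647 on the plus strand, IFITM1 chr11:310041-315272 on the plus strand and IFI27 chr14:94104836-94116695 on the plus strand. Neighbouring members differed unequally. In the OAS cluster the log2 difference of Clone 39 from Clone 28 was 1.58 for OAS1, 0.74 for OAS3 and 2.51 for OAS2. In the IFIT cluster it was 1.1 for IFIT2, 2.93 for IFIT3, 3.00 for IFIT1 and 1.48 for IFIT5. Other tested genes within 1 Mb of a member had median differences from -1.32 to 0.19, with a median of -0.02 over the members. The lowest of these, -1.32, was a median of only 2 tested neighbours of CMPK2 and RSAD2. The same median was -1.54 for Clone 35 against Clone 28. CMPK2 and RSAD2 themselves were higher in Clone 39. Larger sets of neighbours also stood apart from 0 between Clone 39 and Clone 28. The median was -0.87 over 74 neighbours of XAF1 and -0.46 over 22 neighbours of PARP9. The highest, 0.19, was that of 28 neighbours of IRF1.

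The number of promoter matches can be read against the clone difference for the 37 genes with a window and a test. The 12 genes without a match had a median difference of Clone 39 from Clone 28 of 0.45, and the 9 genes with 1 match had the same median of 0.45. The 11 genes with 2 matches had a median of 1.76, the 4 genes with 3 had 1.05, and IFIH1 with 4 had 1.15. Of the 28 genes with a window that passed the joint clone test, 22 held at least 1 match (78.6%), and of the 9 that did not pass, 3 did (33.3%). XAF1 and CMPK2 had no match in their first listed windows although both were among the widest differences.

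**Figure D3:**
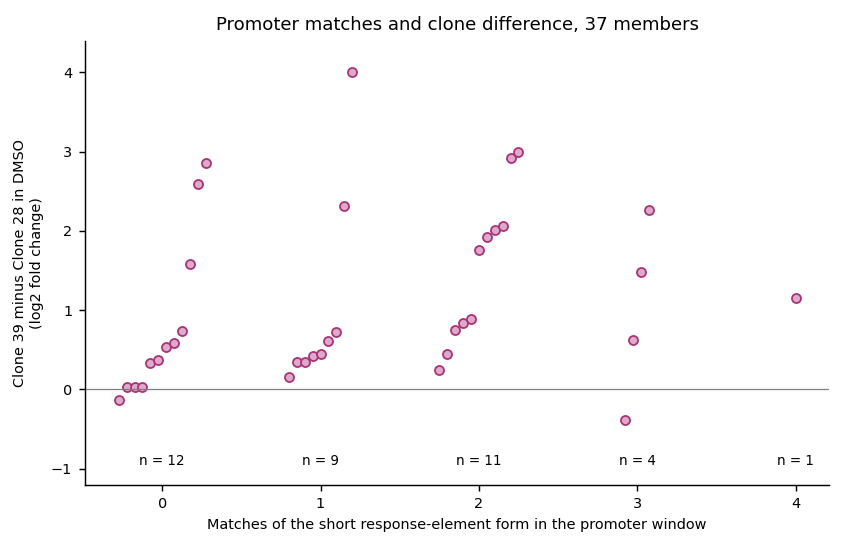
Log2 difference of Clone 39 from Clone 28 in DMSO (y axis) against the number of GAAANNGAA or TTCNNTTTC matches in the first listed promoter window (x axis), 1 point per gene, with the number of genes under each column. Genes without a match reach 2.86 (XAF1), and the 11 genes with 2 matches have a median of 1.76.

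Genes around the pathway were counted from lists chosen by role. Over all genes, 12.4% were higher and 14.3% lower in Clone 39 than in Clone 28, 26.7% in all. None of the 21 interferon genes on the list passed the filter, and the highest count of any of them in a library was 2 reads. Of 14 receptor and kinase genes, 1 was higher (PTPN2, a phosphatase, 0.17) and 2 were lower in Clone 39 than in Clone 28 (JAK1, a receptor kinase, -0.24, and SOCS3, a feedback inhibitor, -0.46). These were 21.4% of that list, below the share of all genes. Of 15 tested genes of nucleic acid sensing, 6 were higher and 0 lower (40%). RIGI, the sensor of viral RNA ends, had a mean of 31.9 ± 2.93 CPM in Clone 28, 38.6 ± 2.30 in Clone 35 and 57.8 ± 3.58 in Clone 39 (SD, n = 4). ZC3HAV1 and ADAR were higher by 0.60 and 0.42 on the log2 scale. Of 19 partners of antigen presentation, 10 were higher and 2 were lower (63.2%). NLRC5, the transactivator of class I genes, had a mean of 14.9 ± 1.88 CPM in Clone 28, 20.4 ± 2.13 in Clone 35 and 26.3 ± 2.19 in Clone 39 (SD, n = 4), while HLA-F and the immunoproteasome subunit PSMB10 were higher by 0.91 and 0.66. Of 34 tested genes on a list of other interferon-stimulated genes, 24 were higher and 2 lower in Clone 39 (76.5%), with a median difference of 0.41. DDX60 (1.19), DDX60L (0.83) and RNF213 (0.44) had the smallest p in the joint test.

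The second comparison asked whether loss of TRPS1 for 90 minutes changed these genes. With the 3 clones together, 0 of the 46 members passed by edgeR's quasi-likelihood test, where 0.551% of all genes did. DESeq2 also called 0 members, and 4 members had an unadjusted p under 0.05. The median change of the members was -0.03 on the log2 scale and the changes ranged from -0.32 to 0.51. The 95% interval of the change lay within 0.25 of 0 on the log2 scale for 18 members and within 0.5 for 41. IRF9, IFIT2, IFIT3, SAMD9L and XAF1 had wider intervals. The highest estimate, 0.51 for IRF9, was -0.11 (edgeR adjusted p = 0.971) without dTAG-13 replicate 1 of Clone 39. PRO-seq reads transcription of TRPS1 and not its protein, so these files do not show how far the protein was depleted.

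The 3 members with the smallest p are given with their values, although none passed. ISG20 had 9.45, 10.5, 10.1 and 11.6 CPM in the DMSO libraries of Clone 28 and 11.9, 8.79, 9.25 and 10.8 CPM in its dTAG-13 libraries. In Clone 35 ISG20 had 14.1, 13, 13.3 and 12 CPM in DMSO and 9.17, 9.63, 8.79 and 10.8 in dTAG-13. In Clone 39 ISG20 had 12.2, 12.4, 10.9 and 11.2 CPM in DMSO and 11.7, 8.75, 9.68 and 11.4 in dTAG-13. The treatments overlapped in Clones 28 and 39 but not in Clone 35, and the change over the clones was -0.23 (SE 0.08, unadjusted p = 0.00834, edgeR adjusted p = 0.450), with dTAG-13 lower in 10 of 12 pairs. The estimate was 0.24 for OAS1 (SE 0.10, unadjusted p = 0.0164, edgeR adjusted p = 0.574), higher in 10 of 12 pairs, and -0.11 for PARP9 (SE 0.05, unadjusted p = 0.0397, edgeR adjusted p = 0.752), higher in 3 of 12 pairs.

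**Figure D4:**
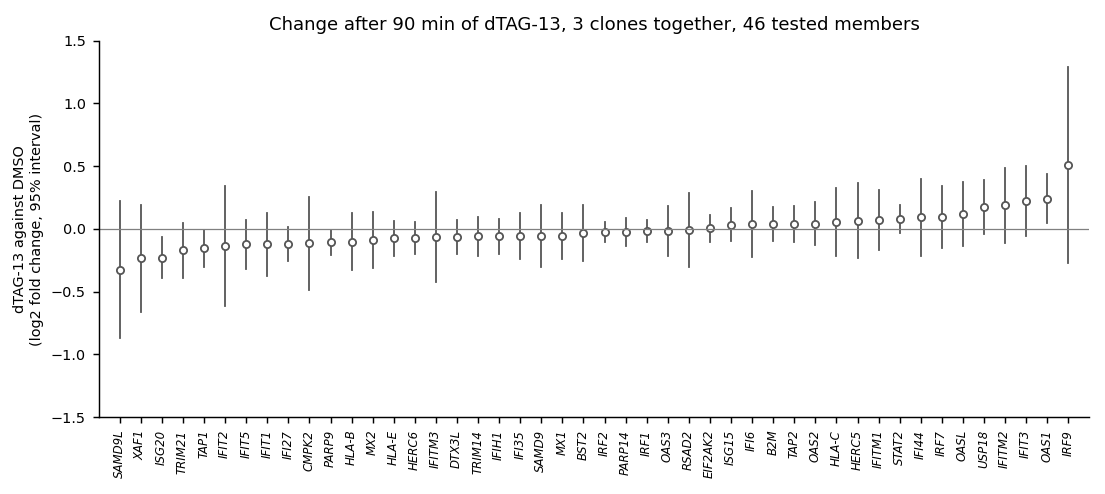
Log2 change in dTAG-13 against DMSO with the 3 clones together (y axis) for each of the 46 tested genes in order of size (x axis), with 95% intervals; all points are open because 0 passed an adjusted p of 0.1. The estimates run from -0.32 for SAMD9L to 0.51 for IRF9, whose interval is the widest.

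Taken clone by clone, 0 members passed in Clone 28, 0 in Clone 35 and 0 in Clone 39 by edgeR, where 0.0537%, 0% and 0% of all genes did. Unadjusted p-values under 0.05 were found for 2, 3 and 1 members, and DESeq2 called 0 in each clone. With a block for the pairs of the same replicate number, 1 member passed in Clone 28, where 1.18% of all genes did. That member was OAS1, which had 6.46, 6.49, 6.89 and 4.71 CPM in DMSO and 9.32, 9.14, 8.47 and 10.4 CPM in dTAG-13 in Clone 28. The treatments did not overlap there, and the difference was 0.61, with an adjusted p of 0.0821 with the block and 0.390 without it (edgeR). In Clone 39 OAS1 had 20.6, 17, 13.1 and 22.0 CPM in DMSO, which overlapped the 21.4, 22.1, 18.4 and 21.1 CPM of its dTAG-13 libraries. The test of whether the dTAG-13 change differed between clones called 0 members by edgeR, 0 by DESeq2, and 1 at an unadjusted p under 0.05, where 0% of all genes passed.

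The last comparison concerned the replicate numbers, which label collections at different times of the same day. Whether a number stands for the same time in every clone was not given in the sources used here. In a joint test of the 4 numbers over all 24 libraries, 13 of 46 members differed (28.3%), where 37.2% of all genes did. OAS3 was highest in number 4 in 6 of 6 groups. In Clone 39 OAS3 had 75.0, 66.4, 80.4 and 103 CPM in DMSO replicates 1 to 4 and 62.3, 68.0, 84.6 and 102 CPM in dTAG-13 (edgeR adjusted p among numbers 3.46e-11). MX1 was highest in number 1 in 6 of 6 groups (edgeR adjusted p = 7.22e-07), and TAP1 was lowest in number 1 in 4 of 6 groups (edgeR adjusted p = 0.00522). IFI27 was highest in number 4 in 5 of 6 groups (edgeR adjusted p = 0.0112). HERC6 was lowest in number 3 in 4 of 6 groups (edgeR adjusted p = 0.0117), as was EIF2AK2 (edgeR adjusted p = 0.0170). The numbers at which these genes were highest thus differed between genes.

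**Figure D5:**
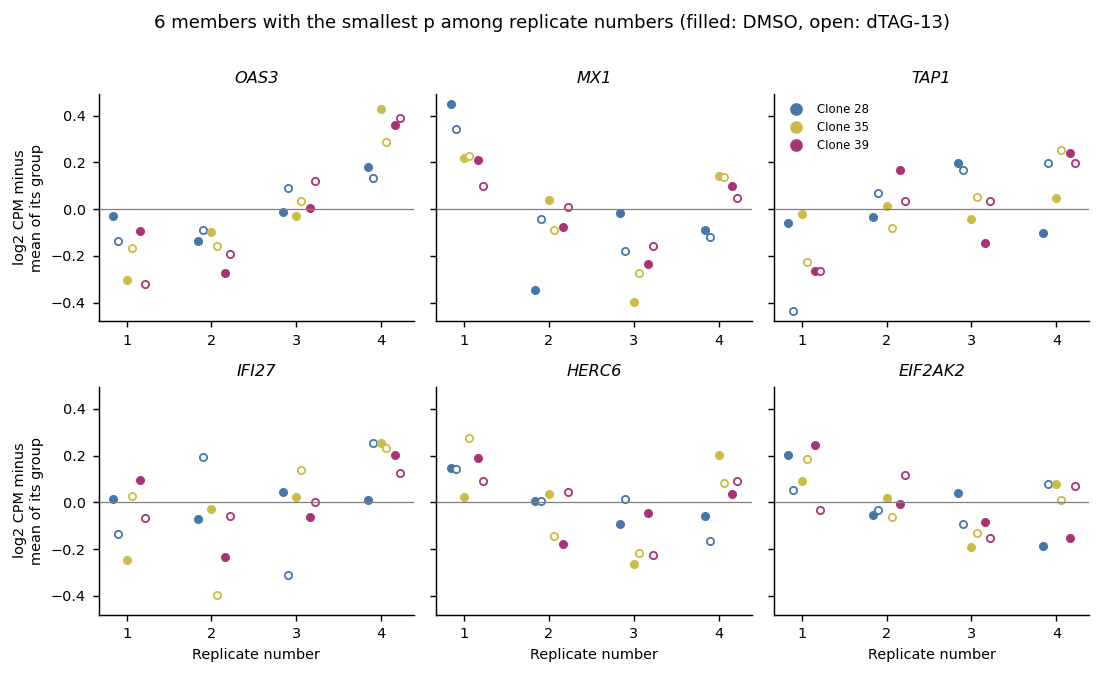
Log2 CPM of the 6 genes with the smallest p among replicate numbers, less the mean of its own group of 4 libraries (y axis), by replicate number (x axis), with clones by colour (filled points, DMSO; open points, dTAG-13). The 6 OAS3 points of number 4 lie above 0 and the 6 MX1 points of number 1 lie above 0.

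With numbers 3 and 4 set against 1 and 2, a split chosen with earlier results of these data known, 6 members were higher and 4 lower, where 20.7% of all genes were higher and 20.1% lower. CMPK2 (0.42), OAS3 (0.34), ISG15 (0.19), TAP1 (0.18), IFI27 (0.14) and BST2 (0.23) were higher in numbers 3 and 4. IFIT2 (-0.59), MX1 (-0.17), PARP14 (-0.15) and EIF2AK2 (-0.12) were lower. These shifts were smaller than the differences between Clone 39 and Clone 28 for each of these genes, as OAS3 at 0.34 against 0.74 and MX1 at -0.17 against 2.07.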

How the data were processed

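The authors deposited a table of raw read counts per gene for 24 PRO-seq libraries in 6 groups of 4, not normalized. Per the labels and the study's methods, adapters were removed with cutadapt 1.8.1, reads were deduplicated with unique molecular identifiers, reads of ribosomal DNA were removed, the rest were aligned to hg38 with Bowtie2 2.4.4 and handled with SAMtools 1.9, and reads in genes were counted with bedtools. The annotation release and the strand setting of the counting are not given in the sources used here. Of genes lying inside another gene on the opposite strand, 15.1% had more counts than the outer gene, against 0.611% of those on the same strand. Names and coordinates came from GENCODE 44, which held 60463 of the 60605 identifiers.

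Low counts were filtered with filterByExpr over the 6 groups (minimum count 10), which left 22326 genes, and the libraries were scaled by TMM and fitted with edgeR 4.0.16 (robust quasi-likelihood) in R 4.3.3. Clones, dTAG-13 within a clone and its difference between clones were tested in a model of 6 groups with 18 residual degrees of freedom, and dTAG-13 over the clones in a model of clone and treatment. Replicate numbers were tested as a term beside the 6 groups. Adjustment by Benjamini-Hochberg ran over every gene in the fit, with the study's threshold of 0.1. CPM values use the TMM-scaled library sizes. Standard errors were derived from the F statistic. DESeq2 1.42.0, other scalings, filters, thresholds and sets of libraries were alternatives, and the steps were tested on simulated data. Totals of 3226718 to 9575800 counts per library set the counting error, and intervals from the fit also include the spread between replicates. The members, lists and tests were chosen with earlier results of these data known.

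The named genes were the 12 with the widest range of DMSO means among members past the joint clone test, the 3 with the smallest p for dTAG-13, the 6 with the smallest p among replicate numbers, 6 factors and presentation genes (STAT2, IRF9, IRF1, ISG15, B2M and HLA-B), the members failing the filter, and the 3 with the smallest joint p of each other list. Further members were named after their values were seen. Same-numbered libraries deviated together from their group means over 15472 genes. The r ran from 0.206 to 0.479 for the 12 treatment pairs of a clone and from 0.284 to 0.514 for the 12 pairs of DMSO libraries of different clones. The own number gave the highest r in 9 of 12 and 10 of 12 of these pairs, and other numbers reached r of 0.386 and 0.426. The numbers were taken to pair the libraries and were used as a block in the alternative, although this pairing was not complete. Sequences are from RefSeq (GRCh38.p14).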

Additional observations from a re-analysis of the deposited data

Results flagged for a closer look

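In each group of 4 libraries the highest or lowest CPM value was set against the others by Dixon's criterion, over 162 groups of values of named genes, of which chance alone would mark about 8.1 (about 1 in 20). There were 4 such values. In Clone 39 with dTAG-13, replicate 1 had 262 CPM of IRF9, the DNA-binding partner of STAT2, against 24.3 to 32.8 in the other replicates, and the same library had 30.4 CPM of STAT2 against 33.5 to 33.8. In Clone 39 with DMSO, OAS2 stood low in replicate 3, at 23.7 CPM against 28.4 to 28.9, and IFI44L stood high in replicate 2, at 2.06 CPM against 0.817 to 0.999. The part of the overlapping gene in the IRF9 value was not tested.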

How the results depend on the processing

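The 34 members that differed between Clone 39 and Clone 28 kept their direction under each alternative that tested them, and 30 to 34 of the 34 stayed past the threshold except under a minimum of 10 counts in every library, which left 23 of them in the test, all 23 past it. Leaving out each of the 24 libraries in turn gave 30 to 34 members in the joint clone test, 31 to 35 for Clone 39 against Clone 28, 14 to 18 for Clone 35 against Clone 28, 22 to 25 for Clone 39 against Clone 35, 0 for dTAG-13 in every form, 11 to 16 for the replicate numbers and 8 to 11 for numbers 3 and 4 against 1 and 2. With at least 10 counts in every library 10 members differed between Clone 35 and Clone 28 in place of 17, since fewer members were tested. With the replicate block 1 member passed for dTAG-13 in Clone 28 in place of 0. For the clones it gave 34 members in place of 32 in the joint test (IFIT2 and IFITM2 added), 21 in place of 17 for Clone 35 against Clone 28 (EIF2AK2, IFIT2, USP18 and TAP1), 36 in place of 34 for Clone 39 against Clone 28 (HLA-E and B2M) and 25 in place of 24 for Clone 39 against Clone 35 (IFITM2). It ended no call among the members in these tests. Over all 22326 genes the block also called more, 8861 in place of 6361 in the joint test and 2664 in place of 1173 for Clone 35 against Clone 28. For Clone 39 it called 7855 in place of 5959 against Clone 28 and 6814 in place of 5035 against Clone 35.

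The replicate-number counts depended on the setting. In place of 13 members in the joint test there were 5 in the 12 DMSO libraries alone, 5 with DESeq2, 6 without Clone 35 and 5 without Clone 39. Over all genes, 8306 of 22326 became 6448 of 21254, 5033 of 23349, 6039 of 21578 and 6101 of 21874 in the same order. In place of 10 members for numbers 3 and 4 against 1 and 2 there were 6 in the DMSO libraries alone, 6 with DESeq2 and 6 without Clone 39. Over all genes, 9108 of 22326 became 7553 of 21254, 6351 of 24383 and 7267 of 21874 in the same order. The cause was not tested. The HLA-B difference between Clone 39 and Clone 28 ranged from -0.21 to 0.18 when 1 library was left out, and turned to -0.05 without Clone 28 DMSO replicate 2 and to -0.21 without Clone 39 DMSO replicate 4, neither past the threshold.

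Over all genes, dTAG-13 with the clones together called 123 genes, 1 without Clone 28, 37 without Clone 35, 37 without Clone 39, 521 with the block, 197 without the filter and 64 at a threshold of 0.05, and in Clone 28 alone it called 12, 263 with the block, 87 without the filter, 39 with DESeq2, 23 with at least 10 counts in every library, 22 with library totals only, 7 with RLE factors and 4 at 0.05. In Clone 35 and Clone 39 it called 0 in each, 21 and 16 with the block, 4 and 2 without the filter and 1 each with DESeq2. For a difference between clones it called 0, 6 without the filter and 1 with the block. Clone 35 against Clone 28 called 1173 genes, 2664 with the block and 3100 with a clone term over both treatments. The clone term called 9978 genes in the joint test in place of 6361, 9084 in place of 5959 for Clone 39 against Clone 28 and 7805 in place of 5035 for Clone 39 against Clone 35. DESeq2 called 5033 genes for the replicate numbers in place of 8306. With few reads in Clone 28, depth limits the folds of IFI44, XAF1 and CMPK2, and with a prior count of 0.5 in place of 2 the difference of the mean log2 CPM of Clone 39 and Clone 28 moved from 3.44 to 3.88 for IFI44 and from 2.24 to 2.76 for XAF1.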
